A study of Mus musculus with 13 samples.

Results

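The genes described here make up the machinery with which a cell copies its DNA and divides, together with the regulators that decide whether it starts. They are 48 genes chosen by name, each found as 1 row among the 55487 genes of the deposited table by its Ensembl identifier: 23 genes of DNA replication and S phase, 19 genes of mitosis, 3 D cyclins and 3 inhibitors of cyclin-dependent kinases (CDKs). RNA was measured in microglia, the resident macrophages of the brain, which were bead-selected for the surface protein CD11b from whole mouse brain on postnatal day 4, the day in the sample titles. The groups are offspring of dams with maternal immune activation (MIA) and control offspring (CON), with 5 retained libraries each. The titles mark 3 more libraries (CON 6, MIA 6 and MIA 7) as left out by the submitters, and they appear here as values and in named alternatives. The agent given to the dams, the strain, the litter, the sex and the number of pups behind a library are not given in the labels used here, so p-values measure the spread between these libraries, which may be partly technical.

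Microglia multiply in the brain during the first weeks after birth, and a share of them is in cycle at any time. In a cell that commits to division, D cyclins activate CDK4 and CDK6, which inactivate the retinoblastoma proteins and free the E2F factors to switch on replication genes. Genes of mitosis are switched on later in the same cycle by other complexes, so that replication genes are read as signs of entry into S phase and mitotic genes as signs of passage towards division. In RNA from a whole sorted population, fewer dividing cells and less of the RNA in each dividing cell cannot be told apart.

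Total counts per library ran from 25387055 to 35593541, and the 48 genes took 0.280 to 0.443% of them. All 10 microglial marker genes, among them Csf1r, Cx3cr1 and P2ry12, were present in every library, with a summed level of 23229 to 29780 CPM in CON and 15229 to 19688 CPM in MIA (CPM, the normalised read count relative to library size, scaled by the trimmed mean of M values), and 9 of the 10 were lower in MIA. Of 15511 genes tested with edgeR, 10.3% changed between the groups at an adjusted p under 0.05, 5.75% of them being higher and 4.58% lower in MIA as shares of all genes tested. Libraries CON 1 and CON 2 stood apart. For 12 genes induced by tissue dissociation their summed level was 2649 and 2450 CPM against 6499 to 10629 CPM in the other 11 libraries, and for 10 erythroid genes it was 108 and 180 CPM against 1325 to 3496 CPM. Among the retained libraries endothelial genes moved with the groups, with a summed level of 897 to 1464 CPM in CON and 2651 to 4492 CPM in MIA. In CON 6, MIA 6 and MIA 7 the endothelial sum was 2804, 2228 and 2449 CPM. The microglial sum, given above for retained libraries, was 20424, 22323 and 22962 CPM there. For the microglial sum, CON 6 was thus below every retained control, and MIA 6 and MIA 7 above every retained MIA library.

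Of the 48 genes, 3 changed between MIA and control: the replication licensing gene Cdt1 was lower, and the D cyclin genes Ccnd2 and Ccnd3 were higher. None of the 19 mitotic genes passed edgeR, and none had an unadjusted p under 0.05 with edgeR, DESeq2 or limma-voom. All 48 genes passed the filter on low counts. The 45 genes that did not pass are not shown to be equal in the groups. For 40 of the 48 genes the 95% interval of the fold change lay within 1.5-fold in either direction, including all 19 mitotic genes and 19 of the 23 replication genes. The called gene Cdt1 is among these, so an interval within 1.5-fold does not mean no change. The 3 genes called of 48 sit beside the 10.3% of all genes tested that were called.

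**Figure D1:**
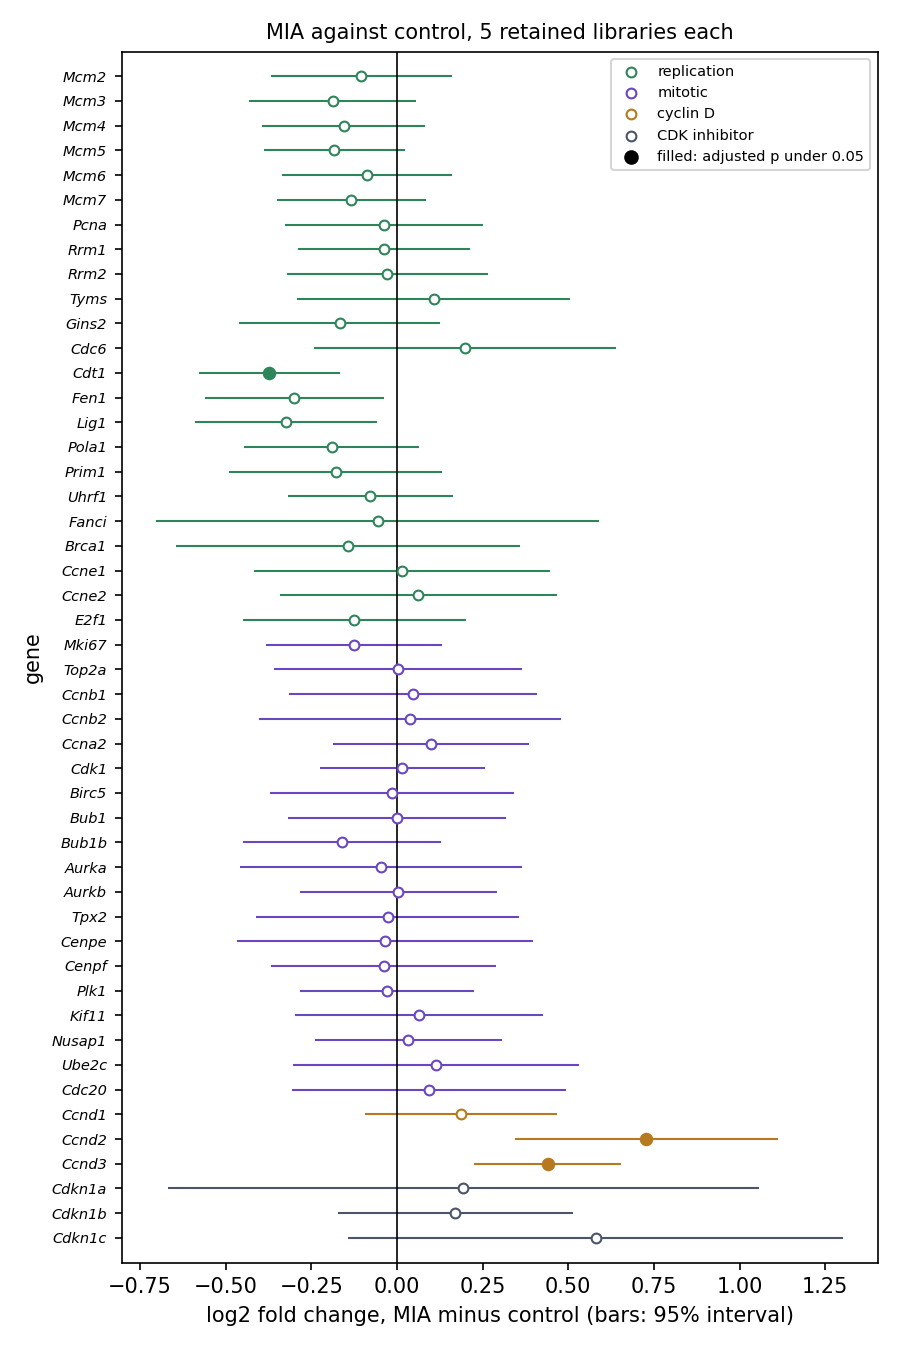
Log2 fold change of each of the 48 genes, MIA minus control (x axis), with its 95% interval from the edgeR fit of 5 against 5 libraries; filled points passed an adjusted p of 0.05. The mitotic genes lie around 0, most replication genes lie slightly below 0, and Ccnd2 and Ccnd3 lie to the right.

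The helicase that unwinds DNA at replication forks is a ring of 6 proteins, encoded by Mcm2 to Mcm7, and none of the 6 genes passed. Mcm3 was at 173, 283, 233, 228 and 217 CPM in CON 1 to 5 and at 187, 207, 218, 175 and 209 CPM in MIA 1 to 5. The MIA values lie within the range of the control values, between the low CON 1 and the high CON 2. Its log2 fold change was −0.19 ± 0.11 (SE; edgeR adjusted p = 0.363; 95% interval −0.43 to 0.06). Mcm6 was at 166, 273, 227, 236 and 200.4 CPM in CON 1 to 5 and at 189, 219, 231, 196 and 203 CPM in MIA 1 to 5, in the same arrangement (log2 fold change −0.09 ± 0.12, SE). The log2 fold changes of Mcm5, Mcm4, Mcm7 and Mcm2 were −0.18, −0.16, −0.13 and −0.10.

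None of the genes that supply building blocks and start the new strand passed. Pcna, the sliding clamp that holds polymerases on DNA, was at 129, 232, 200.4, 226 and 199 CPM in CON 1 to 5 and at 185, 192, 217, 183 and 183 CPM in MIA 1 to 5. CON 1 was far below every other library and the remaining values overlapped. Rrm1, the large subunit of the enzyme that makes deoxynucleotides, was at 144, 226, 187, 237 and 202 CPM in CON 1 to 5 and at 197, 199, 211, 181 and 182 CPM in MIA 1 to 5, again with CON 1 lowest. Rrm1 and Rrm2, the small subunit, had log2 fold changes of −0.04 ± 0.12 and −0.03 ± 0.14 (SE), and Tyms, which makes thymidylate, 0.11 ± 0.18 (SE). Pola1 and Prim1, which lay down the first primers, were at −0.19 ± 0.12 and −0.18 ± 0.14 (SE). Uhrf1, which passes DNA methylation to the new strand, was at −0.08 ± 0.11 (SE). Fanci and Brca1, of DNA repair at stalled forks, were at −0.06 ± 0.30 and −0.14 ± 0.23 (SE), with the widest intervals of the class.

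Cdt1 loads the helicase onto replication origins together with the product of Cdc6. It was at 31.6, 39.2, 34.8, 34.8 and 29.3 CPM in CON 1 to 5 and at 25.3, 24.8, 28.3, 25.6 and 27.1 CPM in MIA 1 to 5. Every retained MIA library was below every retained control, and the excluded libraries kept that order, with 36.5 CPM in CON 6, 28.6 in MIA 6 and 27.1 in MIA 7. The MIA mean of Cdt1 was 0.773 times the control mean in the edgeR fit, or −0.37 ± 0.10 in log2 (SE; adjusted p = 0.0241). It was the 1 replication gene of 23 that was lower, where 4.58% of all genes tested were. The call was also made with all 13 libraries (adjusted p = 0.0266), in a comparison in which 4.22% of genes were called in either direction, but leaving out any 1 of CON 2, CON 3, CON 4, MIA 1, MIA 2, MIA 4 and MIA 5 ended it (adjusted p of 0.0527 to 0.0647), as did the replicate block (0.0565), total-count scaling (0.0706) and the set of 13 without CON 1 and CON 2 (0.0635). Cdc6 was at 14.6 ± 4.15 CPM in CON and 16.7 ± 3.46 CPM in MIA (SD, n = 5 each), with a log2 fold change of 0.20 ± 0.20 (SE), and did not pass.

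Fen1 and Lig1, which trim and seal the fragments of the lagging strand, came closest to a call after Cdt1. Lig1 was at 41.3, 67.8, 59.3, 61.0 and 55.1 CPM in CON 1 to 5 and at 42.9, 47.8, 47.96, 38.8 and 49.9 CPM in MIA 1 to 5. Apart from CON 1, every retained control was above every MIA library. Its log2 fold change was −0.32 ± 0.12 (SE; edgeR adjusted p = 0.125), and that of Fen1 −0.30 ± 0.12 (SE; adjusted p = 0.152). Gins2, of the active helicase, was at −0.17 ± 0.14 (SE). The E cyclin genes Ccne1 and Ccne2, which start S phase, were at 0.01 ± 0.20 and 0.06 ± 0.19 (SE), and E2f1, the factor that drives the class, at −0.12 ± 0.15 (SE), on 11.2 ± 1.84 CPM in CON and 10.3 ± 1.16 CPM in MIA (SD, n = 5 each).

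Over the 23 replication genes the median log2 fold change was −0.12, with 19 genes below 0, beside a median of −0.01 over all genes tested, of which 51.1% were below 0. Over the 19 mitotic genes the median was 0.00, with 8 genes below 0. Neither median carries a test, since genes of a class vary together.

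Among the mitotic genes, log2 fold changes over the 10 libraries ran from −0.16 to 0.11. Top2a, which untangles sister DNA, was at 125, 226, 246, 257 and 199 CPM in CON 1 to 5 and at 185, 199, 253, 208 and 210 CPM in MIA 1 to 5. The 4 controls other than CON 1 overlap the MIA libraries. Its log2 fold change was 0.00 ± 0.17 (SE; edgeR adjusted p = 0.996; 95% interval −0.36 to 0.36). Mki67, the gene of the proliferation antigen Ki-67, was at 53.9, 89.1, 88.2, 85.6 and 80.3 CPM in CON 1 to 5 and at 70.4, 72.8, 77.9, 73.0 and 70.1 CPM in MIA 1 to 5. CON 1 was below all MIA libraries and the other 4 retained controls were above all the retained MIA libraries, while MIA 6 and MIA 7 were at 89.7 and 82.4 CPM, among the controls. Its log2 fold change over the 10 libraries was −0.12 ± 0.12 (SE; edgeR adjusted p = 0.600).

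The mitotic kinase gene Cdk1 and the genes of the cyclins that activate it did not pass. Cdk1 was at 93.6, 129.6, 132, 151 and 132 CPM in CON 1 to 5 and at 120, 124, 148, 131 and 123 CPM in MIA 1 to 5. Ccna2 was at 96.0, 153, 142, 178 and 162 CPM in CON 1 to 5 and at 166, 155, 167, 144 and 151 CPM in MIA 1 to 5. Ccnb1 was at 71.3, 121, 142, 150.1 and 132 CPM in CON 1 to 5 and at 141, 117, 141, 123 and 114 CPM in MIA 1 to 5. In all 3 genes CON 1 was the lowest library and the other controls overlapped the MIA libraries. Their log2 fold changes were 0.02 ± 0.11, 0.10 ± 0.13 and 0.05 ± 0.17 (SE), and that of Ccnb2 was 0.04 ± 0.20 (SE). The 95% interval for Cdk1 ran from −0.22 to 0.26 on the log2 scale. Among the kinases of the spindle, Aurka, Aurkb and Plk1 had log2 fold changes of −0.05, 0.00 and −0.03. The checkpoint genes Bub1 and Bub1b, which delay anaphase until every chromosome is attached, were at 0.00 ± 0.15 and −0.16 ± 0.13 (SE). Birc5, of the complex that corrects attachments, and the centromere genes Cenpe and Cenpf were between −0.04 and −0.01. The spindle genes Tpx2, Kif11 and Nusap1 were between −0.03 and 0.06. Ube2c and Cdc20, which mark mitotic proteins for destruction at anaphase, were at 0.11 ± 0.19 and 0.09 ± 0.18 (SE).

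**Figure D2:**
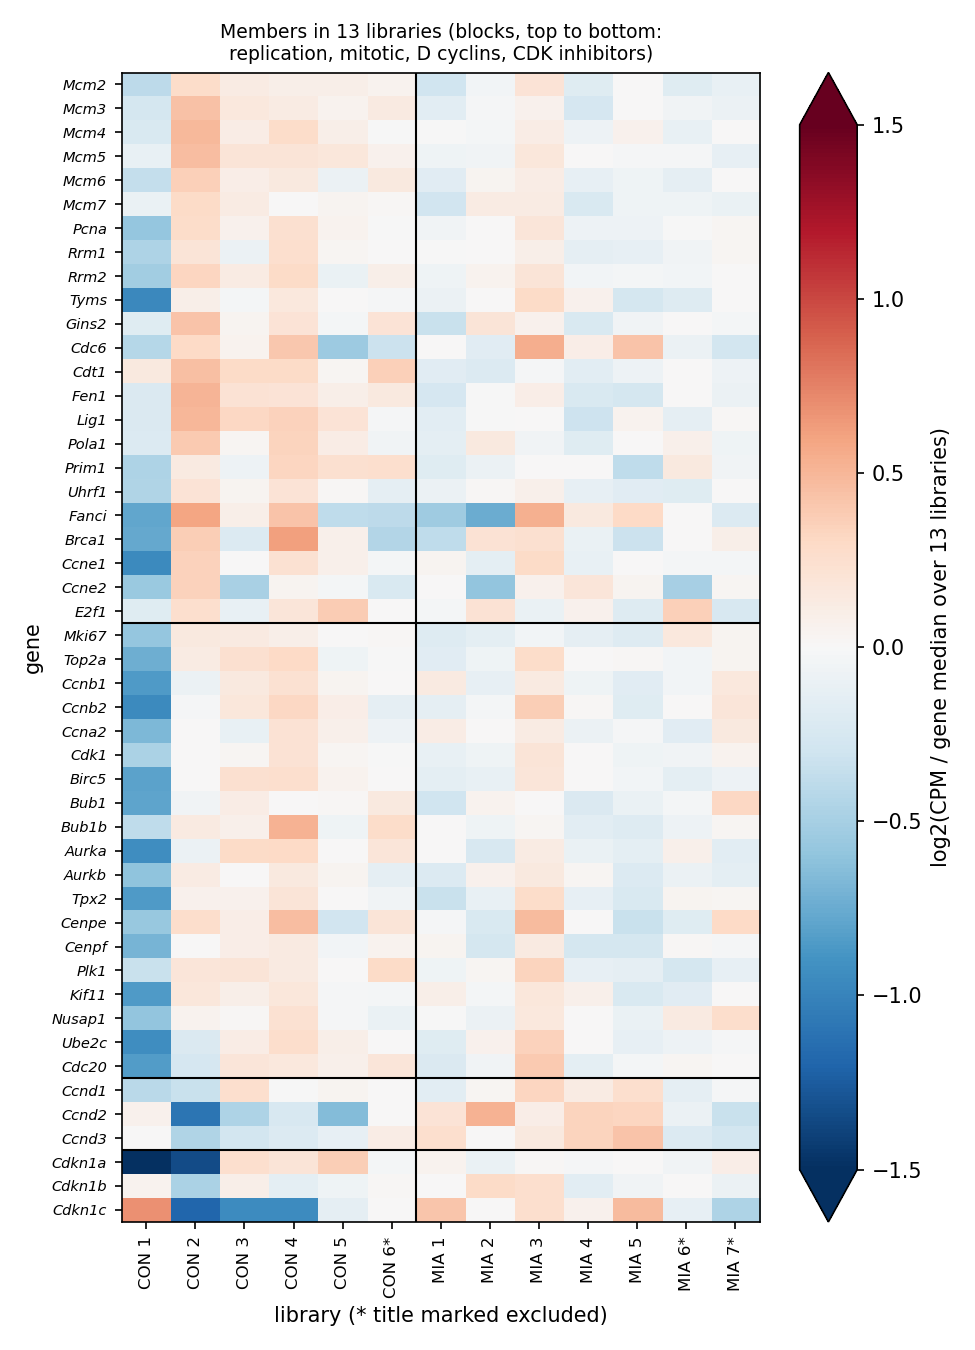
Level of each of the 48 genes (rows) in each of the 13 libraries (columns), as log2 of CPM over the gene's median across libraries; the colour scale ends at −1.5 and 1.5, and CON 1 lies below that end for Cdkn1a. CON 1 is low throughout the mitotic block, and CON 2 is highest of 13 in 16 of the 23 replication genes. The share of all genes in which CON 2 is highest was not counted.

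With CON 1 included, the replication and mitotic genes varied together across libraries far more within the controls than between the groups. CON 1 had the lowest level of all 13 libraries in all 19 mitotic genes and in 14 of the 23 replication genes. Among the 10 retained libraries it was lowest in 19 and 15 of them, against 16.9% of all genes tested. Its level was a median of 0.569 times the mean of the other 4 retained controls for mitotic genes and 0.686 times for replication genes, and 0.992 times over all genes tested. With CON 1 included, the spread was larger in the controls for 41 of these 42 genes; the share over all genes was not counted. For the mitotic mean log2 CPM the SD was 0.368 in the 5 controls, 0.102 in CON 2 to 5 and 0.135 in MIA. For the replication mean it was 0.287, 0.156 and 0.109. CON 1 also had the highest summed level of 5 choroid plexus markers, 15691 CPM against 26.6 to 12789 CPM in the other 12 libraries, and of 8 astrocyte markers, 841 CPM against 281 to 743 CPM, and their part in its low levels was not tested. Its microglial sum, 24743 CPM, was within the control range. CON 2, by contrast, was highest of the 13 libraries in 16 replication genes and in no mitotic gene. CON 4 was highest in 10 mitotic genes. The shares of all genes tested in which CON 2 or CON 4 was highest were not counted.

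On the class means the libraries therefore did not order the same way. For replication genes the mean log2 CPM was 5.34, 6.09, 5.79, 5.98 and 5.76 in CON 1 to 5 and 5.59, 5.69, 5.88, 5.65 and 5.69 in MIA 1 to 5. For mitotic genes it was 5.52, 6.26, 6.34, 6.46 and 6.23 in CON 1 to 5 and 6.14, 6.16, 6.43, 6.16 and 6.08 in MIA 1 to 5. CON 1 was lowest on each mean. The excluded libraries lay among the others, at 5.73, 5.69 and 5.69 for replication and 6.27, 6.18 and 6.28 for mitosis in CON 6, MIA 6 and MIA 7.

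**Figure D3:**
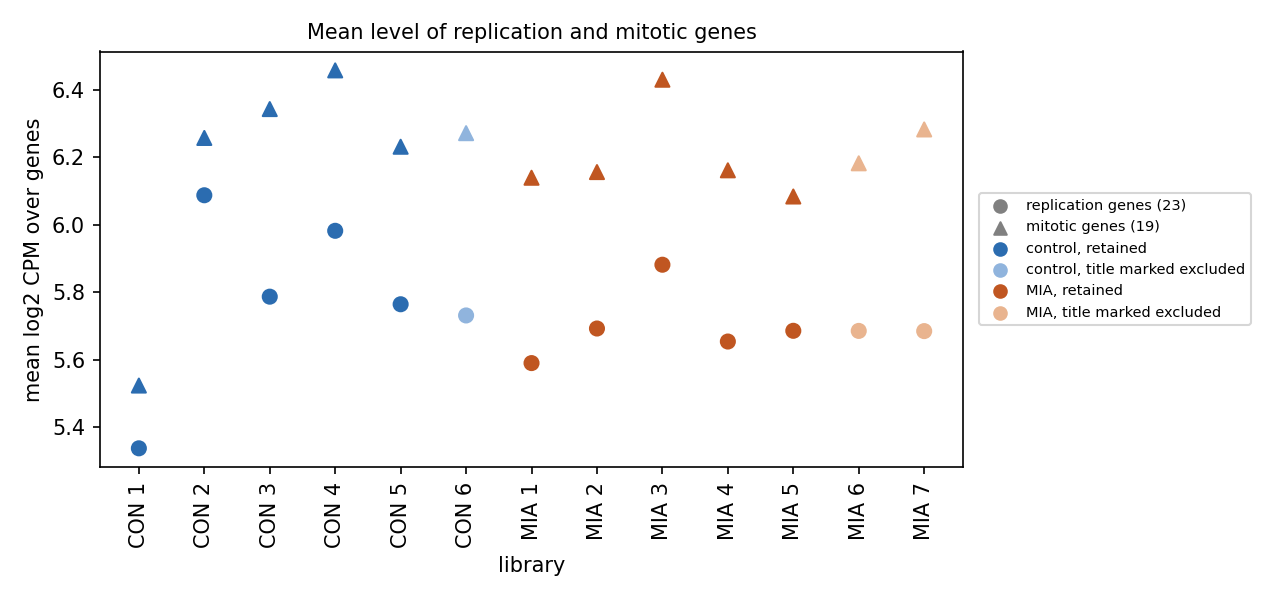
Mean log2 CPM over the 23 replication genes (circles) and the 19 mitotic genes (triangles) in each library, coloured by group. CON 1 is lowest for each class, and the gap between circle and triangle is smallest in CON 1 and CON 2.

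Replication genes set against mitotic genes separated CON 1 and CON 2 from the rest, and not the MIA group from the control group. Subtracting the mitotic from the replication mean log2 CPM gave −0.19 in CON 1 and −0.17 in CON 2, with −0.56, −0.47 and −0.47 in CON 3 to 5. In MIA 1 to 5 it was −0.55, −0.46, −0.55, −0.51 and −0.40, and in CON 6, MIA 6 and MIA 7 −0.54, −0.50 and −0.60. Thus 2 controls lay above every other library and the remaining 11 overlapped. The same 2 libraries are those with low dissociation and erythroid transcripts, whose part in the result was not tested. The difference of the class medians between the groups, replication minus mitosis, was −0.13 over the 10 libraries and 0.00 without CON 1 and CON 2. No test was made of this contrast.

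Without CON 1 the picture shifted down in MIA. Of the 23 replication genes 22, and all 19 mitotic genes, then had log2 fold changes below 0, with medians of −0.20 and −0.13 beside 0.01 over all genes tested. With CON 1 left out, Cdt1, Fen1 and Lig1 (−0.38 and −0.42 for the last 2) were lower among the replication genes and Mki67 (−0.24; edgeR adjusted p = 0.0294) among the mitotic genes, where 6.51% of all genes tested were lower. Mki67, Fen1 and Lig1 were chosen after their values were seen. With all 13 libraries except CON 1, the 3 replication genes were lower again and no mitotic gene was, where 2.07% of all genes tested were lower. With CON 2 left out as well, 2 replication genes, Cdt1 and Lig1, were lower among the retained libraries, where 5.38% of all genes tested were. Among the 13 libraries without CON 1 and CON 2, 0 replication genes were called.

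Wider lists of the same machinery were also counted. Of 46 other replication genes, 48 other mitotic genes and 32 tested genes of the control of cell cycle entry, none passed edgeR over the 10 libraries (6, 0 and 4 genes at an unadjusted p under 0.05, a level that 22.7% of all genes tested reached). DESeq2 called 3, 0 and 3 of them, where it called 14.5% of all genes it gave an adjusted p, and limma-voom called 0, 0 and 1, where it called 10.8%. These shares are below those over all genes. The 3 replication genes that DESeq2 called, all lower, were Mcm10 and Dna2 of the replication fork and the uracil-removing enzyme gene Ung. The median log2 fold changes of the 3 lists with edgeR were −0.11, −0.03 and 0.00. The abundant Rpa1, which coats single-stranded DNA, was at 116 ± 9.75 CPM in CON and 108 ± 10.4 CPM in MIA, the histone mRNA-binding gene Slbp at 94.3 ± 16.0 and 87.9 ± 5.29 CPM, the chromatin gene Hmgb2 at 208 ± 44.6 and 213 ± 18.0 CPM, and the checkpoint gene Bub3 at 155 ± 16.5 and 151 ± 9.19 CPM (SD, n = 5 each). Cdk4, the kinase that D cyclins activate, was at 241 ± 21.6 and 239 ± 23.3 CPM. Without CON 1, 10 of the 46 other replication genes were lower, where 6.51% of all genes tested were. Of the 48 other mitotic genes 3 were lower, a share near that of all genes: Ndc80, Tacc3 and Ccnf, named after their values were seen. With CON 2 left out too, 1 other replication and 4 other mitotic genes were lower, where 5.38% of all genes tested were. With all 13 libraries except CON 1, 3 other replication genes were lower, where 2.07% of all genes tested were. With the 13 except CON 1 and CON 2, 0 were.

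The promoters of the 2 main classes are shown as background, with words chosen from prior knowledge of such genes. Whether these words relate to levels or fold changes was not tested. RefSeq windows of 250 bases before to 50 bases after the start, on build GRCm38.p6, were found for 39 of the 48 genes. They were searched on both strands for the E2F words TTTCCCGC, TTTCGCGC, TTTGCCGC and TTTGGCGC, for the cell cycle homology region (CHR) words TTTGAA and TTCGAA (the latter reads the same on each strand), and for the CCAAT box CCAAT. Matches may overlap, and a gene with several starts counted if any window held the word. An E2F word stood in 9 of 20 replication promoters (45%) and 1 of 16 mitotic promoters (6.25%). It stood in 2.61% of all 27025 genes with such a RefSeq window, a set not limited to the deposited genes. A CHR word stood in 12 of 16 mitotic promoters (75%), 3 of 20 replication promoters (15%) and 21.7% of all genes, and a CHR word together with CCAAT in 12 of 16, 2 of 20 and 9.65%. In the 250 bases before the start alone, an E2F word stood in 6 of 20 replication promoters, 1 of 16 mitotic promoters and 2.16% of all genes. A CHR word stood there in 8 of 16 mitotic promoters, 3 of 20 replication promoters and 19.6% of all genes. These are matches of letters and not measured binding sites.

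The last 150 bases before the start follow for 2 replication genes with E2F words and 3 mitotic genes with CHR words, 5′ to 3′ on the gene's strand, with the letters of the E2F, CHR and CCAAT words in capitals. Their positions are chr1:128359706-128359855 on the minus strand for Mcm6, chr11:98908001-98908150 on the plus strand for Cdc6, chr10:69352913-69353062 on the minus strand for Cdk1, chr7:135716380-135716529 on the minus strand for Mki67 and chr4:118437344-118437493 on the minus strand for Cdc20.
Mcm6: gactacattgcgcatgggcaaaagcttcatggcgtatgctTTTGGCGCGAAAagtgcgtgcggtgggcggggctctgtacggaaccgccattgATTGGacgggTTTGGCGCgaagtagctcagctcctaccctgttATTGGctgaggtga
Cdc6: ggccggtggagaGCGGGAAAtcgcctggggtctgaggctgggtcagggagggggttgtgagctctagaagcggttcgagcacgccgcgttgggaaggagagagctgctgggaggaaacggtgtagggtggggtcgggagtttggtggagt
Cdk1: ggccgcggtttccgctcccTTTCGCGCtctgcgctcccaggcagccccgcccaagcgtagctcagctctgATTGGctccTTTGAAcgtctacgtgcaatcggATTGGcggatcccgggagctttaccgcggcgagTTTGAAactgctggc
Mki67: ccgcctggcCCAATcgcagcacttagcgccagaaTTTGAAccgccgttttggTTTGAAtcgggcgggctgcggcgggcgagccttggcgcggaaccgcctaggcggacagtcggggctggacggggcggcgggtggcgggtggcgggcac
Cdc20: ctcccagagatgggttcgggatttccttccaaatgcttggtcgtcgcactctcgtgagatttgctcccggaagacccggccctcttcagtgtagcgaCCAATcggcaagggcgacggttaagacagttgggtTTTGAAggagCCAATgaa
Mcm6 holds 3 E2F words, 2 of them overlapping, and a pair of CCAAT boxes that read ATTGG on this strand. Cdc6 holds 1 E2F word, in the reverse direction. Cdk1 holds an E2F word as well as 2 CHR words, and is the 1 mitotic promoter of the 16 with an E2F word. Mki67 holds 2 CHR words and Cdc20 holds 1, beside CCAAT boxes. In Cdt1, the replication gene that was lower in MIA, the word TTTGGCGC begins 33 bases after the start.

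The D cyclins link growth signals to cell cycle entry, and 2 of the 3 genes, Ccnd2 and Ccnd3, were higher in MIA. Ccnd2 was at 84.0, 37.4, 58.2, 67.6 and 51.1 CPM in CON 1 to 5 and at 92.4, 115, 86.0, 101 and 100.1 CPM in MIA 1 to 5. Every retained MIA library was above every retained control, by a small margin over CON 1. Ccnd2 was 1.66-fold higher, or 0.73 ± 0.18 in log2 (SE; 95% interval 0.34 to 1.11; edgeR adjusted p = 0.0206). Ccnd3 was at 106, 77.2, 87.8, 92.0 and 97.3 CPM in CON 1 to 5 and at 126, 106, 117, 133 and 142 CPM in MIA 1 to 5. The highest retained control, CON 1, and the lowest retained MIA library, MIA 2, almost touched, at 105.918 and 105.947 CPM. Ccnd3 was 1.36-fold higher, or 0.44 ± 0.10 in log2 (SE; edgeR adjusted p = 0.0122). Ccnd1 was at 83.1, 86.8, 131, 109 and 113 CPM in CON 1 to 5 and at 97.8, 111, 137, 119 and 130.2 CPM in MIA 1 to 5, so that the groups overlapped; its difference was 0.19 ± 0.13 in log2 (SE; adjusted p = 0.445 with edgeR). The 2 of 3 D cyclin genes called stand beside 5.75% of all genes tested that were higher.

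The excluded libraries did not follow the groups in these genes. Ccnd2 was at 80.0 CPM in CON 6 and at 75.2 and 63.3 CPM in MIA 6 and MIA 7, and Ccnd3 at 114 CPM in CON 6 and at 92.0 and 87.4 CPM in MIA 6 and MIA 7. For each gene the excluded control was above the excluded MIA libraries. With all 13 libraries neither passed, with log2 fold changes of 0.52 (edgeR adjusted p = 0.114) and 0.26 (adjusted p = 0.231), where 4.22% of all genes tested were called. Ccnd2 also missed the threshold when CON 3, CON 5 or MIA 4 was dropped (adjusted p of up to 0.0526), and Ccnd3 passed in all 10 such fits.

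Transcripts of other cell types also differed between the retained groups. All 10 endothelial markers were higher in MIA. Their summed level was 2804 CPM in CON 6, which lay with the MIA group, and 2228 and 2449 CPM in MIA 6 and MIA 7. These 2 MIA libraries were thus above every retained control, at 897 to 1464 CPM. Their Ccnd2 and Ccnd3 levels were within the range of the retained controls. In CON 6, Ccnd2 was within that range, at 80.0 CPM, and Ccnd3 was above it, at 114 CPM. Of 9 tested neural progenitor markers 3 were higher, with a summed level of 74.2 to 99.2 CPM in CON and 116 to 170 CPM in MIA. CON 6, MIA 6 and MIA 7 had 115, 121 and 105 CPM, so that CON 6 lay above every retained control and MIA 7 below every retained MIA library. Of 11 tested neuronal markers 5 were higher, at 58.9 to 78.6 against 110 to 163 CPM, with 73.9 CPM in CON 6 and 79.6 and 68.9 CPM in MIA 6 and MIA 7. No marker in these 3 lists was at 0 in all 13 libraries. D cyclins are also expressed in dividing endothelial and progenitor cells, and the part of these cells in the result was not tested.

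**Figure D4:**
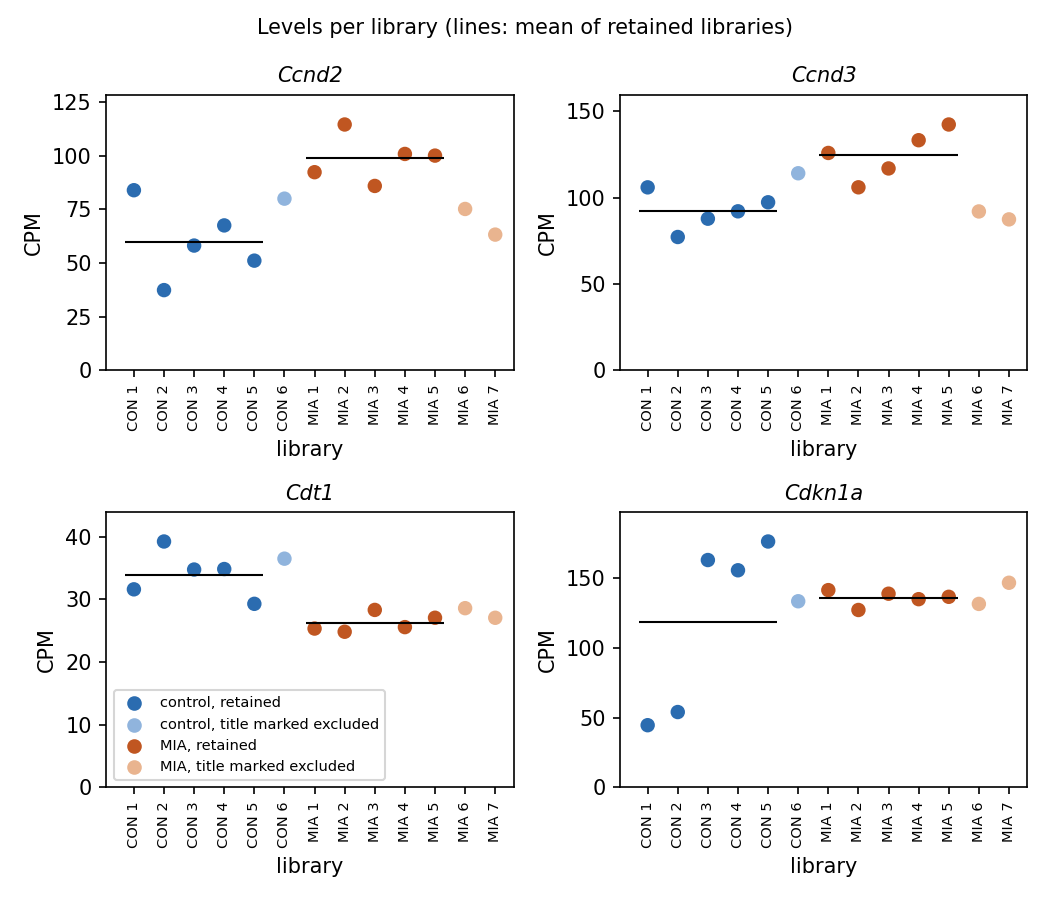
CPM of Ccnd2, Ccnd3, Cdt1 and Cdkn1a in each of the 13 libraries, with lines at the mean of the 5 retained libraries of each group. The retained MIA libraries are above the retained controls for Ccnd2 and Ccnd3 and below them for Cdt1, while Cdkn1a is low in CON 1 and CON 2.

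The CDK inhibitors, which hold cells out of cycle, did not pass. Cdkn1a, the gene of the p53-induced inhibitor p21, was at 44.5, 54.0, 163, 156 and 176 CPM in CON 1 to 5 and at 141, 127, 139, 135 and 137 CPM in MIA 1 to 5. The controls fell into a low pair, CON 1 and CON 2, and 3 libraries above every retained MIA library. Over the 10 libraries its log2 fold change was 0.19 ± 0.38 (SE; edgeR adjusted p = 0.830). Without CON 1 and CON 2 the direction turned among the retained libraries, with a log2 fold change of −0.29 (edgeR adjusted p = 0.0161). In that fit 5.38% of all genes tested were lower. Cdkn1a was at 133, 132 and 147 CPM in CON 6, MIA 6 and MIA 7. Among the 13 libraries without CON 1 and CON 2, 0 of 6 D cyclin and inhibitor genes were called. Over all genes tested there, 90 of 16050 were called. The growth arrest gene Btg2 had the same 2 low libraries, at 272 and 280 CPM in CON 1 and CON 2. It was at 963 to 1090 CPM in the other retained controls and at 615 to 826 CPM in the retained MIA libraries. In CON 6, MIA 6 and MIA 7 it was at 908, 1001 and 1060 CPM. Btg2 is itself 1 of the 12 dissociation genes. The p53 pathway genes Trp53, Mdm2 and Ccng1 did not pass, at 104 ± 15.1 and 118 ± 6.33 CPM, 49.9 ± 7.38 and 50.2 ± 4.94 CPM, and 110 ± 9.64 and 93.8 ± 10.8 CPM in CON and MIA (SD, n = 5 each). In CON 1 and CON 2 the low Cdkn1a stood beside the low dissociation list, whose part in it was not tested.

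Cdkn1b, the gene of the inhibitor p27, was at 9.59, 6.63, 9.85, 8.32 and 8.81 CPM in CON 1 to 5 and at 9.24, 11.2, 11.0, 8.26 and 8.93 CPM in MIA 1 to 5, overlapping, with a log2 fold change of 0.17 ± 0.16 (SE). Cdkn1c, an imprinted inhibitor gene, was scarce, at 8.56, 2.33, 2.77, 2.76 and 4.86 CPM in CON 1 to 5 and at 7.12, 5.35, 6.36, 5.56 and 7.41 CPM in MIA 1 to 5. CON 1 was above every MIA library, and the other 4 retained controls were below every retained MIA library. Its log2 fold change was 0.58 ± 0.33 (SE; edgeR adjusted p = 0.341), and 1.00 without CON 1 (adjusted p = 0.0171). CON 6, MIA 6 and MIA 7 were at 5.32, 4.89 and 3.85 CPM.

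The values above are relative to all RNA in a library. Scaled to the 10 microglial markers, which were themselves lower in MIA, the log2 fold change of all genes tested had a median of 0.53, and those of the replication and mitotic genes 0.41 and 0.54. Relative to that shift, replication genes were at −0.12, mitotic genes at 0.01 and D cyclins at 0.46. On this scale 14 replication and 16 mitotic genes were higher, where 48.2% of all genes tested were called.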

How the data were processed

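Per the labels' protocols, unperfused brains without meninges were digested with papain and bead-selected for CD11b, and libraries were primed on poly(A) tails and are not stranded. The submitters' processing notes name RSEM, STAR and DESeq2 without roles or versions; build and annotation: not given in the sources used here. The authors deposited expected counts, estimated counts per gene that need not be whole, with no normalization across libraries; they were rounded to whole numbers (20.6% of nonzero values were not whole). Of the Ensembl identifiers, 54349 matched a symbol exactly and 55141 with the version removed.

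The 10 retained libraries were compared by edgeR 4.0.16 under R 4.3.3 (filterByExpr, TMM, robust quasi-likelihood test on group alone) with Benjamini-Hochberg adjustment over 15511 genes. SE is the absolute log2 fold change over the square root of F, and 95% intervals use its t quantile. CPM shown for all 13 libraries use TMM factors over the 13; class means use log2 CPM with a prior count of 2. Genes with overlapping or antisense partners cannot be told apart without strand. The rule for named genes gave values in every library for members past the threshold and up to 4 of the most abundant per class, and the 2 most abundant genes of each wider list; Lig1, Fen1, Mki67 and the p53 pathway genes were added after their values were seen. The members, lists and markers were chosen with earlier results of these data known.

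In a simulation of the 5 against 5 comparison over 15218 genes, 63 genes were changed 1.5-fold, 66 were changed 2-fold and 65 were changed 4-fold. Of these, 28.6%, 47.0% and 80.0% were recovered, and 6.48% of 108 calls were false. Genes were drawn independently, no library was made to stand apart, and a smaller share of genes changed than was called in the data. The rates may therefore differ in the real comparison. Alternatives used DESeq2 1.42.0, limma-voom (limma 3.58.1), other scalings and filters, a replicate block, and other sets of libraries. The level that 3 counts stand for was 0.0874 to 0.117 CPM and cover counting error only. RefSeq promoter sequences are of build GRCm38.p6.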

Additional observations from a re-analysis of the deposited data

Results flagged for a closer look

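Among 102 sets of 5 libraries (48 genes and 3 class values in each group), 18 held a library whose gap to its nearest neighbour was over 0.71 of the range. Chance gives about 1 such set in 20, and genes that vary together are not independent sets. Of the 18, 14 were CON 1, always as the lowest library. Among replication genes CON 1 was at 99.0 CPM for Mcm2 (the other retained controls began at 139), 129 CPM for Pcna (199), 24.4 CPM for Tyms (46.9), 70.3 CPM for Uhrf1 (97.3) and 10.4 CPM for Ccne1 (20.2). Among mitotic genes it was at 53.9 CPM for Mki67 (80.3), 42.3 CPM for Ccnb2 (81.1), 38.1 CPM for Birc5 (66.2), 27.6 CPM for Bub1 (46.2), 39.2 CPM for Aurkb (59.4), 46.1 CPM for Tpx2 (82.8), 19.7 CPM for Cenpf (31.0) and 40.6 CPM for Kif11 (72.4). The mean log2 CPM of the mitotic genes in CON 1 was 5.52, against 6.23 to 6.46 in the other retained controls.

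In the MIA group MIA 3 was the highest library for Mcm5, at 146 CPM against 125 to 130 CPM in the others, for Pcna, at 217 CPM against 183 to 192 CPM, and for the mitotic mean, at 6.43 against 6.08 to 6.16 in log2 CPM. MIA 2 was the lowest for Ccne2, at 15.5 CPM against 23.5 to 26.7 CPM.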

How the results depend on the processing

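Over 22 alternatives, 992 of 1054 values of single members kept their side of the threshold. A sign change was counted only where a gene passed in the main fit or the alternative. In 141 of the values, over all alternatives, the sign changed without the gene passing in either. The 992 values are mostly those of the 45 members not called in the main fit. Of the 3 called members, Cdt1 kept its call in 11 of the 22 alternatives, Ccnd2 in 16 and Ccnd3 in 19. The count of 1602 genes over the whole table was 659 with all 13 libraries, 769 without CON 1 and 90 without CON 1 and CON 2 among the 13, and 1037 to 2263 with 1 retained library left out. Total-count scaling split it into 1035 higher and 496 lower, against 892 and 710. Scaling to microglial genes, which moved the median of all genes by 0.53, gave 7480 genes, 14 replication, 16 mitotic, 5 D cyclin and inhibitor, 25 other replication, 25 other mitotic and 18 cell cycle entry genes, and class medians of 0.41 and 0.54. It turned Mcm2 (0.44), Mcm3 (0.36), Mcm4 (0.39), Mcm5 (0.37), Mcm6 (0.46), Mcm7 (0.41), Pcna (0.50), Rrm1 (0.50), Rrm2 (0.51), Cdt1 (0.18), Uhrf1 (0.46), Mki67 (0.42), Birc5 (0.53), Tpx2 (0.51), Cenpf (0.49) and Plk1 (0.50) positive, all of them called except Cdt1; here the scaling itself sets the shift. The causes of the changes below were not tested.

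The 1 replication gene was 0 with the replicate block and with total-count scaling, 2 without CON 1 and CON 2, 3 among the 13 without CON 1, 0 without CON 1 and CON 2, and 0 to 3 with 1 library left out. The mitotic count of 0 was 0 to 1 with 1 library left out. The 2 D cyclins and inhibitors were 0 with all 13 libraries, with or without CON 1 or CON 1 and CON 2, 4 among the retained libraries without CON 1 and CON 2 (Cdkn1a turned to −0.29 there), and 1 to 3 with 1 library left out. The count of 0 other replication genes was 1 without CON 1 and CON 2, 1 with the strict filter of 10 CPM in 5 libraries, 3 with DESeq2, 3 with the 13 without CON 1, and 0 to 10 with 1 library left out. That of 0 other mitotic genes was 4 without CON 1 and CON 2, 2 with the 13 without CON 1, and 0 to 3. That of 0 cell cycle entry genes was 2 with total-count scaling, 3 with DESeq2, 1 with each of limma-voom, the strict filter, all 13, the 13 without CON 1, and without CON 1 and CON 2, and 0 to 1. Under the replicate block 1524 genes passed in all, and Cdt1 was the 1 member that lost its call (edgeR adjusted p = 0.0565); same-numbered libraries correlated at 0.06 to 0.30 in their deviations from group means, not all above 0.1, and only number 3 was its own best match, so the numbers were not treated as pairs. Leaving out 1 library moved the replication median between −0.20 and −0.06 and the mitotic median between −0.13 and 0.08. Fits among the 13 without CON 1 or CON 2 were chosen after seeing the data. Depth did not limit the members, the scarcest of which, Cdkn1c, stood above the limit that a count of 0 allows in every library.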

Other observations

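Among the genes of cell cycle entry, the atypical E2F repressors E2f7 and E2f8 lay on opposite sides. E2f7 was at 10.7 ± 1.26 CPM in CON and 14.2 ± 1.71 CPM in MIA, and E2f8 at 14.8 ± 2.34 and 10.9 ± 0.927 CPM (SD, n = 5 each). Neither passed edgeR (adjusted p = 0.0796 and 0.0637), and each passed DESeq2 (adjusted p = 0.0422 and 0.0275). The inhibitor gene Cdkn2b was scarce, at 2.88 ± 0.329 and 4.77 ± 0.928 CPM, and passed DESeq2 and limma-voom (adjusted p = 0.0122 and 0.0495) but not edgeR (adjusted p = 0.0524). These genes were picked after their values were seen.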
